A study of Mus musculus with 6 samples.

Results

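The collagen chain genes were measured in 6 lines of mouse induced pluripotent stem (iPS) cells, 1 whole-transcript array per line. Members were all gene symbols of the form Col, a type number, a and a chain number. They comprised 44 of the 19938 genes with a probeset of their own, and each was read through 1 probeset, the brightest over the 6 arrays where there was more than 1. The values are log2 expression values, so that a difference of 1 is a 2-fold change. By collagen type the members fell into 11 fibrillar chains (types I, II, III, V, XI, XXIV and XXVII), 6 type IV chains of basement membranes, 9 fibril-associated chains with interrupted helices (FACIT) and 18 other chains.

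All 6 lines were induced from OG2 mouse embryonic fibroblasts, cells that carry a fluorescent reporter under Oct4 control. These fibroblasts were infected with the reprogramming factors Sox2, Klf4, Oct4 and c-Myc and with 1 of 2 short hairpin RNAs (shRNA). In control clones 2, 3 and 4 the shRNA was directed against luciferase, which mouse cells lack, and in shECAD clones 4, 8 and 9 against E-cadherin, the adhesion protein encoded by Cdh1. The cells were moved onto feeder cells on day 6, colonies were picked on day 14, and the lines were kept on feeders, which the labels' protocols say were eliminated before RNA extraction. Each line was grown from 1 picked colony, and the labels name no separate infections, so p-values measure the spread between clones (n = 3 per group). Values below follow the order of the clone numbers given here. Cdh1 itself read 9.18, 9.60 and 9.07 in the control lines, against 6.75, 6.92 and 7.81 in the shECAD lines, a log2 change of -2.13 ± 0.27 (SE, limma adjusted p = 0.00683). The median over all probesets ranged from 5.11 to 5.30 between arrays. All 15 markers of pluripotent cells lay above the median gene on every array, with a mean level between 8.73 and 9.40. Of these 15 markers 0 passed the test, beside 3.12% of all genes. An unadjusted limma p below 0.05 was found in 4 of the 15, beside 3595 of all 19938 genes. The largest log2 changes among these were -0.81 for Esrrb and -0.79 for Fgf4. The fitted change was above 0 in 5 of the 15 markers, against 53.7% of all genes, and its median was -0.34. In 3 of the 15 the shECAD clones were lower without overlap, beside 12.5% of all genes.

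Collagens are secreted proteins whose chains wind together into a stiff helix, and they form much of the extracellular matrix. Fibrillar collagens build the fibres of skin, bone and connective tissue and are typical products of fibroblasts. Type IV chains form the sheet-like network under epithelia, and FACIT chains sit on the surface of fibrils. Cells of the early embryo are known for the type IV collagen of their basement membranes.

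Across the family, 9 of 44 chains rose in the shECAD clones and 0 fell at a limma adjusted p below 0.05, beside 1.90% of all genes higher, 1.23% lower and 3.12% in either direction. All genes divided into 378 higher and 245 lower, and into 303 and 377 after median centring of the arrays. They were Col12a1, Col1a1, Col1a2, Col6a3, Col8a1, Col5a2, Col4a2, Col5a1 and Col4a1, and 7 of them rose by 2-fold or more. The groups did not overlap in 16 chains, all higher in the shECAD clones, beside 11.1% of all genes that were higher and 12.5% that were lower without overlap. The fitted change was above 0 in 44 of 44 chains, against 53.7% of all genes, and its median was 0.34 against 0.03 over all genes. Without control clone 3 this count was 40 and the median 0.17, and after median centring they were 42 and 0.25. After quantile normalization the count was 42.

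**Figure D1:**
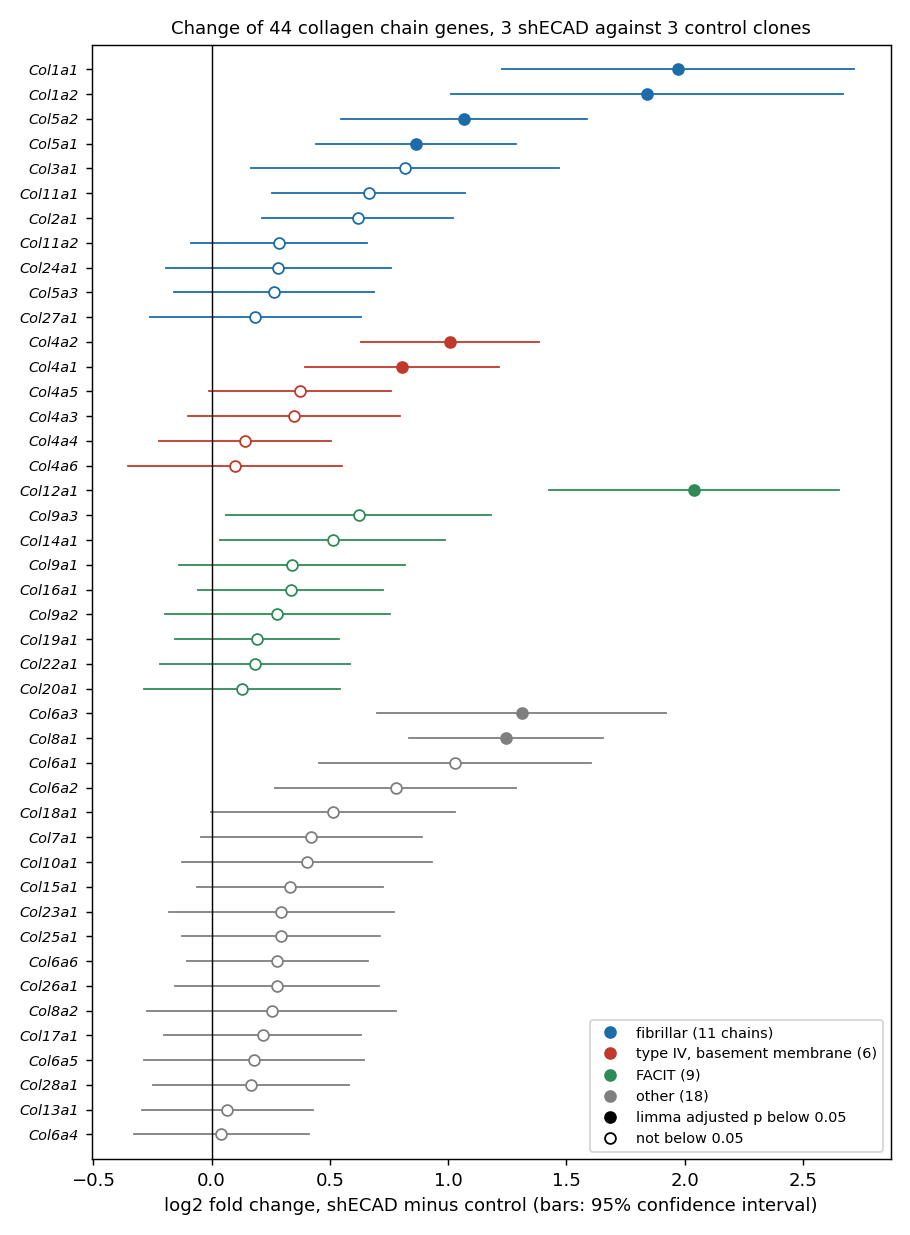
Log2 fold change (shECAD minus control) of each of the 44 collagen chain genes, grouped by class, with the 95% confidence interval of the limma fit as a bar. Filled points are the 9 chains with an adjusted p below 0.05; Col12a1 (2.04), Col1a1 (1.97) and Col1a2 (1.84) lie farthest from 0.

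Col1a1 and Col1a2, Col4a1 and Col4a2, and Col5a1 and Col5a2 are the chains that combine in the common forms of types I, IV and V, and in each of these pairs both chains rose. RefSeq promoter windows of build GRCm38.p6, from 250 bases before to 50 after a gene's start, were found for 35 of the 44 chains and for 6 of the 9 that rose. The windows of Col4a1 and Col4a2 are shown because these genes lie head to head and share 78 bases of the windows. Col1a2 is shown for type I, and Col8a1 as a chain whose type partner did not pass. Capitals mark the CCAAT box, the GC box (GGGCGG) and the TATA box (TATAAA) on either strand, and each line runs 5′ to 3′ along the gene's own strand.
Col4a1 (chr8:11312777-11313076, minus strand): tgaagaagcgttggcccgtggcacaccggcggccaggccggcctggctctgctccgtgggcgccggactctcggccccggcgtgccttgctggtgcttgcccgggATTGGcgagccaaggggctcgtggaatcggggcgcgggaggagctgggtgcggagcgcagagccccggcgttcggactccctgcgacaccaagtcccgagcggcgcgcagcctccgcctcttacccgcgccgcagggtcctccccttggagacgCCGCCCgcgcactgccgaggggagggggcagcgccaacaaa
Col4a2 (chr8:11312555-11312854, plus strand): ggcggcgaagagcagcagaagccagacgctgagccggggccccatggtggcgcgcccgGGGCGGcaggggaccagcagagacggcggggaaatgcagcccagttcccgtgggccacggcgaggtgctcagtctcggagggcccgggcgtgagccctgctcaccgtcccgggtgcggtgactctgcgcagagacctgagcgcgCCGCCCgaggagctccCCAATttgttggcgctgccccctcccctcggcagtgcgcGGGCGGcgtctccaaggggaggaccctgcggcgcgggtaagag
Col1a2 (chr6:4505368-4505667, plus strand): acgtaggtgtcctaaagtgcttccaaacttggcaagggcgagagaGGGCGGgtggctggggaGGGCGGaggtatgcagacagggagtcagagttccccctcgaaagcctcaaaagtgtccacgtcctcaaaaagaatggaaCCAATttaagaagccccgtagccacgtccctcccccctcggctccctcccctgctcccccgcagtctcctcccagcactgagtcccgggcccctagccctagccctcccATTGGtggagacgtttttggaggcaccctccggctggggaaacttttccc
Col8a1 (chr16:57754688-57754987, minus strand): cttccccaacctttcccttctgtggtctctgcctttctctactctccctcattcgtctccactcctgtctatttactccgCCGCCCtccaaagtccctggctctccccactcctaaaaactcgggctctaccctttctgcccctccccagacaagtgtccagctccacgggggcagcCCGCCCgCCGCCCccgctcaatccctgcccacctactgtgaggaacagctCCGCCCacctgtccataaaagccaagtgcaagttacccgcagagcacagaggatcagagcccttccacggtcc
CCAAT was present in 3 of the 6 chains that rose and in 10 of the 29 other chains, beside 37.4% of all 32851 promoter windows. Col6a2, Col9a1 and Col18a1 have a second window and count if either holds the motif, whereas the share over all promoters is per window. GGGCGG was present in 5 of 6 and in 17 of 29, beside 35.7%, and TATAAA in 0 of 6 and 5 of 29, beside 13.6%. The 1 GGGCGG match of Col4a1 lies in the 78 bases shared with Col4a2 and is also 1 of the 3 matches of Col4a2. This site therefore counts in both chains. For 3 further motifs the counts were 0 of 6 and 1 of 29 for TGANTCA (AP-1), 0 of 6 and 5 of 29 for GGAATG (TEAD), and 1 of 6 and 4 of 29 for CACCTG (an E-box), beside 7.81%, 14.7% and 20.2% of all windows. All were searched on both strands, no motif here contains another, and the matches describe letters in these windows only.

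Among fibrillar chains 4 of 11 rose, beside 1.90% of all genes. The median change of the class was 0.67, against 0.36 for type IV, 0.33 for FACIT and 0.29 for the other chains. Among brighter genes alone the fibrillar median was 0.82. The type IV median was then 0.91, over Col4a1 and Col4a2 alone, both of which passed the test. Col1a1, which encodes the major chain of type I collagen, read 8.72, 7.77 and 7.03 in the control clones, against 9.70, 9.90 and 9.84 in the shECAD clones. The group means were 7.84 ± 0.85 and 9.81 ± 0.10 (SD, n = 3), so that the control clones were the more widely spread. Its fold change was 3.92 (95% confidence interval 2.34 to 6.57, limma adjusted p = 0.017). Col1a2, the partner chain in type I, read 8.85, 7.93 and 6.92 in the control clones and 9.82, 9.79 and 9.61 in the shECAD clones. The same order of clones was seen in the control group, and the fold change was 3.58 (2.02 to 6.37, limma adjusted p = 0.0308). Between Col1a1 and Col1a2 the changes differed by 0.13 ± 0.13 (SE over clones), and a two-sided exact permutation test gave p = 0.2.

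Type V collagen nucleates fibrils and controls their width. Col5a2 read 5.69, 4.88 and 4.75 in the control clones and 6.04, 6.31 and 6.17 in the shECAD clones, a 2.09-fold rise (limma adjusted p = 0.0397). Col5a1 read 6.27, 5.62 and 5.72 and then 6.62, 6.83 and 6.75, a 1.82-fold rise (limma adjusted p = 0.0405). In both, control clone 2 came closest to the shECAD clones without reaching them. The remaining type V chain, Col5a3, read 5.59, 5.0 and 5.45 in the control clones and 5.53, 5.47 and 5.83 in the shECAD clones, so that the groups overlapped (log2 fold change 0.26 ± 0.19 SE, limma adjusted p = 0.513). The change of Col5a1 exceeded that of Col5a3 by 0.60 ± 0.18 (SE) and that of Col5a2 did so by 0.80 ± 0.28.

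Col3a1, which encodes the chain of type III collagen that accompanies type I in soft tissue, did not pass. It read 7.53, 6.95 and 6.12 in the control clones and 7.52, 7.84 and 7.68 in the shECAD clones. Control clone 2 lay level with shECAD clone 4, so that the groups overlapped, and the log2 fold change was 0.82 ± 0.29 (SE, limma adjusted p = 0.172). Without control clone 2 it was 1.15 and passed (limma adjusted p = 0.045), and without control clone 4 it was 0.45 and did not (0.407). Its change was smaller than that of Col1a1 by 1.15 ± 0.12 (SE over clones), a pair chosen after the values were seen. Here the exact permutation p was 0.1, the smallest that 3 clones against 3 can give.

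Of the remaining fibrillar chains, Col11a1 and Col2a1, which are known from cartilage, had groups that did not overlap but did not pass, as did Col11a2. Over all genes 11.1% were higher without overlap. Col11a1 read 5.22, 4.63 and 4.79 in the control clones and 5.57, 5.38 and 5.67 in the shECAD clones (a log2 change of 0.67 ± 0.18 SE, with limma adjusted p = 0.0838). It passed without control clone 2 (limma adjusted p = 0.045), and with any other clone left out the adjusted p was 0.124 to 0.243. Col2a1 read 6.05, 5.73 and 5.92 and then 6.72, 6.19 and 6.64 (0.62 ± 0.18, limma adjusted p = 0.101). The highest values of both were thus in shECAD clones 4 and 9. Col11a2, Col24a1 and Col27a1 had changes of 0.28, 0.28 and 0.19, and that of Col27a1 was the smallest of the class. Of 11 measured markers of cartilage and bone cells, 0 passed the test, beside 3.12% of all genes. An unadjusted limma p below 0.05 was found in 4 of the 11, beside 3595 of all 19938 genes. Below the median gene on every array lay 9 of the 11, Acan among them. Sox9 and Matn1 had the largest changes among the 11 markers, 0.68 and 0.53.

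Type IV collagen divided by chain: the ubiquitous Col4a1 and Col4a2 rose and the chains of specialised basement membranes, Col4a3 to Col4a6, did not pass. Over all genes 1.90% were called higher, and 11.1% were higher without overlap. Col4a2 read 5.70, 5.39 and 5.22 in the control clones and 6.37, 6.59 and 6.37 in the shECAD clones, a 2.01-fold rise (95% confidence interval 1.55 to 2.61, limma adjusted p = 0.0164). Col4a1 read 5.94, 5.36 and 5.44 and then 6.24, 6.42 and 6.50, a 1.75-fold rise (1.31 to 2.32, limma adjusted p = 0.0467). Neither group of values overlapped the other in these genes, and the changes of the pair differed by 0.20 ± 0.13 (SE over clones, two-sided exact permutation p = 0.2). The call of Col4a1 was lost after median centring (limma adjusted p = 0.0514).

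Col4a5 had the largest change of the type IV chains that did not pass, from 5.14, 4.62 and 4.88 in the control clones to 5.17, 5.18 and 5.41 in the shECAD clones. The groups were separated by a narrow margin (log2 fold change 0.37 ± 0.17 SE, limma adjusted p = 0.296). Col4a6 had the smallest of the type, with 4.44, 3.84 and 4.48 against 4.29, 4.18 and 4.59 (0.10 ± 0.20). Its groups overlapped, and its change turned to -0.0025 after quantile normalization. Col4a3 and Col4a4, which also lie head to head, had changes of 0.35 and 0.14. These 4 chains were below the median gene on every array. The change of Col4a2 exceeded theirs by 0.64 ± 0.18 (SE, for Col4a5) to 0.91 ± 0.30 (for Col4a6), without overlap between the groups of clones in any of the 4 differences. Col4a2 was compared because it passed on these same arrays, which favours such a difference.

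In the FACIT class 1 of 9 chains rose, Col12a1, beside 1.90% of all genes, and its change was the largest of the whole family. Col12a1, whose product binds type I fibrils and is found in tendon and other loaded tissue, read 5.49, 4.56 and 4.24 in the control clones. The shECAD clones read 6.71, 7.0 and 6.69, all above the highest control clone. The fold change was 4.11 (95% confidence interval 2.69 to 6.28, limma adjusted p = 0.00833). On the arrays of control clones 3 and 4 it lay below the median gene.

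The other FACIT chains had changes between 0.13 and 0.62. Col9a3, a chain of the type IX collagen of cartilage, read 5.79, 4.96 and 5.80 in the control clones and 6.20, 5.78 and 6.45 in the shECAD clones (log2 fold change 0.62 ± 0.25 SE, limma adjusted p = 0.227). Control clone 3 was the lowest, and the groups overlapped. Col20a1 had the smallest change, with 5.18, 4.65 and 5.05 against 5.11, 4.88 and 5.30 (0.13 ± 0.19). Col14a1, another chain that decorates fibrils, had 0.51 ± 0.21 and overlapping groups, and lay below the median gene on every array. Col9a1, Col9a2, Col16a1, Col19a1 and Col22a1 had 0.34, 0.28, 0.33, 0.19 and 0.18.

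Among the 18 other chains 2 rose, beside 1.90% of all genes: Col6a3 of the beaded filaments and Col8a1 of the short-chain networks. Type VI collagen forms fine filaments around cells from Col6a1, Col6a2 and usually Col6a3. Col6a3 read 6.60, 5.83 and 5.41 in the control clones and 7.39, 7.44 and 6.94 in the shECAD clones, a 2.48-fold rise (95% confidence interval 1.63 to 3.78, limma adjusted p = 0.0339). The clones nearest to each other across the groups were control clone 2 and shECAD clone 9. Col6a1 read 7.11, 6.45 and 5.99 and then 7.28, 7.68 and 7.68, and Col6a2 read 6.41, 6.09 and 5.60 and then 6.58, 7.16 and 6.70.

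Neither Col6a1 nor Col6a2 overlapped between groups, and neither passed (log2 fold changes 1.03 ± 0.26 and 0.78 ± 0.23 SE, limma adjusted p = 0.0632 and 0.101). Over all genes 11.1% were higher without overlap. Col6a1 passed with a trended, robust prior (0.0436), with array quality weights (0.0381), among brighter genes alone (0.0478) and without control clone 2 (0.016), each a limma adjusted p. It did not pass after median centring (0.0636) or quantile normalization (0.0629), with every probeset adjusted on its own (0.118), without moderation (0.321) or with any other clone left out (0.0917 to 0.191), and its change was 0.76 without control clone 4. The change of Col6a3 exceeded that of Col6a1 by 0.28 ± 0.25 (SE over clones, two-sided exact permutation p = 0.4). Col6a4, Col6a5 and Col6a6, chains that can take the place of Col6a3, had changes of 0.04, 0.18 and 0.28, and that of Col6a4 was the smallest of the family. Col6a5 and Col6a6 each have a second, dimmer probeset, with changes of -0.05 and 0.19, so that the probesets of Col6a5 differ in sign and those of Col6a6 do not.

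Col8a1, which encodes a chain of the hexagonal sheets made by endothelial and smooth muscle cells, read 5.84, 5.37 and 5.29 in the control clones. The shECAD clones read 6.57, 6.89 and 6.78, all above the highest control clone, and the fold change was 2.37 (95% confidence interval 1.78 to 3.15, limma adjusted p = 0.0119). Col8a2, its partner, read 5.82, 5.15 and 5.57 and then 5.96, 5.29 and 6.05, with overlapping groups (log2 fold change 0.25 ± 0.24 SE, limma adjusted p = 0.626). The changes of these chains differed by 0.99 ± 0.35 (SE over clones). Col18a1 and Col15a1, chains of vascular and epithelial basement membranes, had 0.51 ± 0.23 and 0.33 ± 0.18. Col7a1 of anchoring fibrils had 0.42 ± 0.21 and Col10a1 of growth plate cartilage 0.40 ± 0.24. The 4 transmembrane chains Col13a1, Col17a1, Col23a1 and Col25a1 had changes from 0.07 to 0.30, and Col26a1 and Col28a1 had 0.28 and 0.17. None of these chains from Col8a2 to Col28a1 passed, and only Col15a1 among them had groups that did not overlap (11.1% of all genes were higher without overlap).

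**Figure D2:**
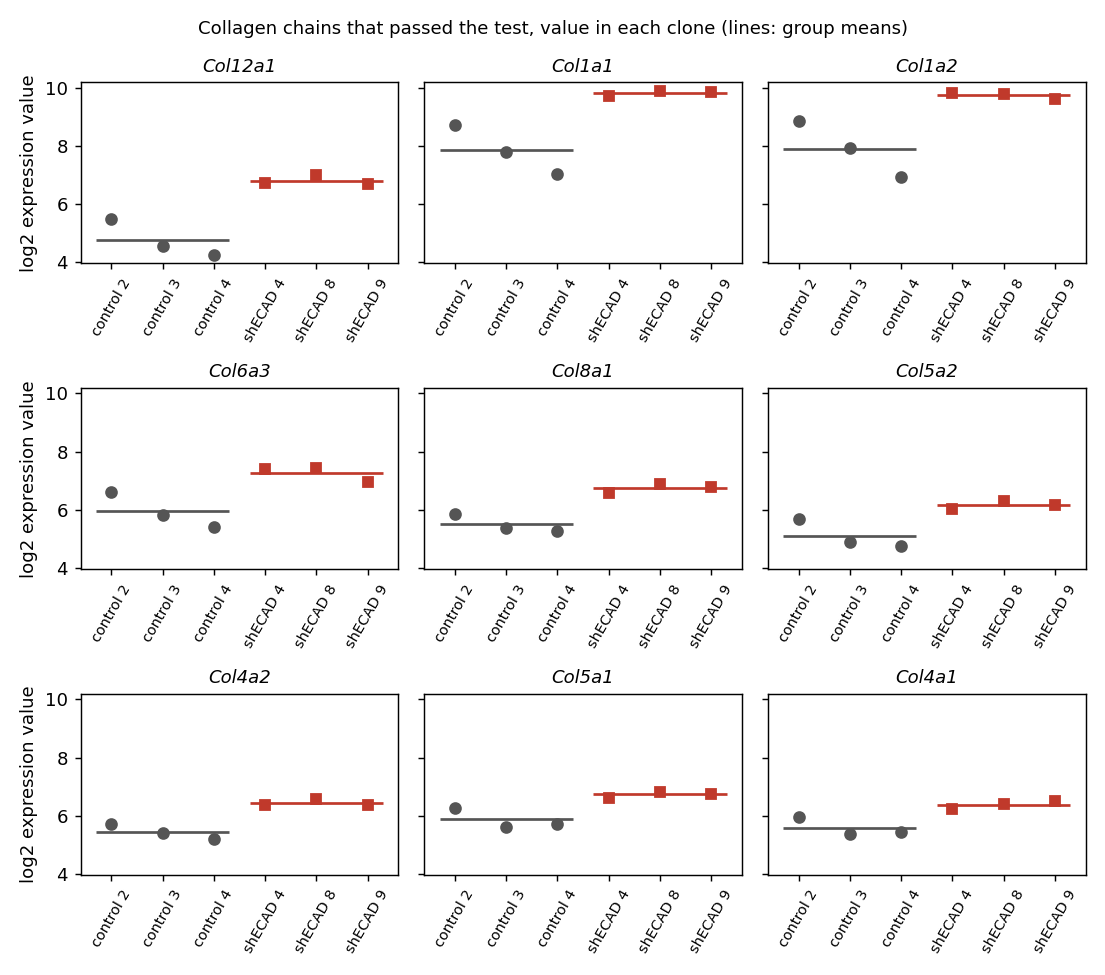
Log2 expression value of each of the 9 chains that passed the test in control clones 2, 3 and 4 (grey circles) and shECAD clones 4, 8 and 9 (red squares), with lines at the group means. In all 9 panels control clone 2 is the highest control clone and lies below every shECAD clone, and the shECAD clones lie closer together than the control clones.

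In total 20 pairs of chains were compared for a difference in change, namely each chain that rose with every other chain of its type, and Col1a1 with Col3a1. The differences within the pairs Col1a1 and Col1a2, Col4a1 and Col4a2, Col5a1 and Col5a2, Col6a1 and Col6a3, and Col6a3 and Col6a6 overlapped between the groups of clones. In the remaining 15 pairs they did not overlap, and the two-sided exact permutation p was 0.1, which became 0.133 after Benjamini-Hochberg adjustment over the 20 pairs. No pair could have passed at this number of clones. The pairs were formed around chains that passed on these same arrays, a choice that favours a larger change in that chain. The count of 15 therefore describes these values only, and no such share was computed over other pairs of genes.

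By position in the RefSeq annotation (GRCm38.p6), 8 pairs of collagen genes are neighbours among protein-coding genes. Col4a1 with Col4a2 is the pair in which both rose. In the pair Col3a1 and Col5a2, Col5a2 rose (a change of 1.07) and Col3a1 did not pass (0.82). Col6a1 with Col6a2 had 1.03 and 0.78, and neither passed. In the remaining 5 pairs (Col9a1 with Col19a1, Col4a3 with Col4a4, Col4a5 with Col4a6, and the Col6a4, Col6a5 and Col6a6 row) changes ran from 0.04 to 0.37.

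The clones within a group were not alike, and their order is described here for the chains that rose and for those that did not pass, with no test of a difference between these sets. Of the 9 chains that rose, 7 were highest in control clone 2 and lowest in control clone 4 among the controls, as were 14.5% of all genes. In shECAD clone 8, 7 of the 9 had their highest value (10.4% of all genes). These shares are not alike: the 9 did not overlap between groups, so their highest value had to lie in a shECAD clone. Non-collagen genes of fibroblasts had the same layout: of 21 measured, 16 ran from control clone 2 down to control clone 4 and 18 were highest in shECAD clone 8. In 17 of these 21 the shECAD clones were higher without overlap (11.1% of all genes), which likewise places the highest value in a shECAD clone. This list was chosen with earlier results of these data known. The mean level of these fibroblast genes was 6.54, 6.18 and 5.69 in the control clones, against 7.18, 7.51 and 7.18 in the shECAD clones. In the list 12 genes rose and 0 fell, beside 1.90% and 1.23% of all genes. Among the 12 were Lox, Postn and Fbln2 (5.11-fold, 4.79-fold and 4.28-fold, limma adjusted p = 0.007, 0.00282 and 0.00553). Pdgfra, Dcn and Lum did not pass, at log2 fold changes of 0.38, 0.48 and -0.23. The part of fibroblast or feeder RNA in the rise of the collagens was not tested, and in such bulk samples more cells of a type and more RNA per cell cannot be told apart.

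Among the 35 chains that did not pass, 30 had their lowest value of all arrays in control clone 3 (25.7% of all genes) and 24 their highest in shECAD clone 9 (28.7% of all genes). Of the same 35, 24 were highest in control clone 2 among the controls, 5 ran from control clone 2 down to control clone 4, and 4 were highest in shECAD clone 8. Col6a1, Col6a2 and Col3a1 belong to both the 5 and the 4, so that they had the clone order of most chains that rose. The 25th percentile over all genes was also lowest in control clone 3, at 3.96, and highest in shECAD clone 9, at 4.32, with the other arrays between 4.08 and 4.18. In these chains the median difference from the control mean was 0.22, -0.31 and 0.10 for the control clones, against 0.26, 0.11 and 0.49 for the shECAD clones. For the 9 chains that rose it was 0.59, -0.13 and -0.36 and then 1.07, 1.39 and 1.06. Of the 35 chains, 14 lay below the median gene on every array, beside 8627 of all 19938 genes. None of the 9 did, but these were selected for their rise in the shECAD clones, which makes such a place less likely. The median change of the 35 was 0.28, and it was 0.12 without control clone 3 and 0.19 without shECAD clone 9. The part of the arrays' low range in these small changes was not tested.

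**Figure D3:**
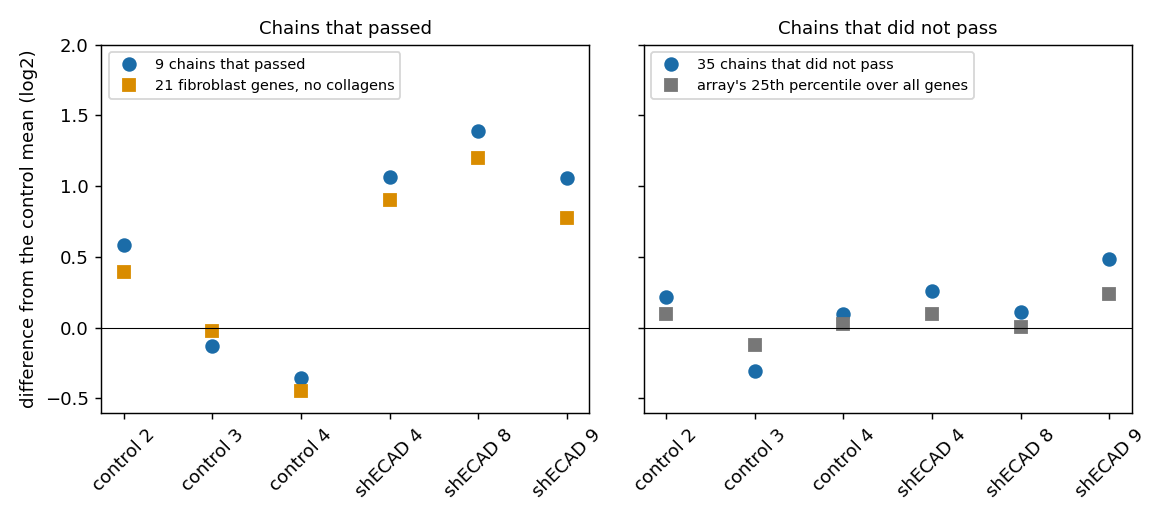
Difference from the mean of the control clones (log2) in each clone. Left, the median of the 9 chains that rose beside the median of 21 fibroblast genes, both highest in shECAD clone 8 (1.39 and 1.20); right, the median of the 35 chains that did not pass beside the 25th percentile of the array over all genes, both lowest in control clone 3 and highest in shECAD clone 9.

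Markers of other cells that make collagen were read beside these values. Over all genes 1.90% were higher and 1.23% lower. Of 10 smooth muscle markers 6 rose and 0 fell, led by Acta2 (10.7-fold), Tagln (3.31-fold) and Actg2 (3.25-fold), and the mean of the list was 5.19 to 5.60 in control clones, against 6.50 to 6.66 in shECAD clones. Myh11, the smooth muscle myosin gene, lay below the median gene on every array (log2 fold change 0.61, limma adjusted p = 0.0841). In 14 endoderm markers, whose cells lay down much type IV collagen, Thbd rose 2.65-fold and 0 fell. The fitted change was above 0 in 11 of the 14, with 0.37, 0.59 and 0.21 for the regulators Gata4, Gata6 and Sox17, and -0.57 and -0.49 for Srgn and Lama1. The mean of the list was 4.80 to 5.37 in control clones, against 5.19 to 5.51 in shECAD clones. None of the 10 endothelial markers passed, and 2 had an unadjusted limma p below 0.05, beside 3595 of all 19938 genes. Of the 10, 5 had a change above 0, beside 53.7% of all genes, with a median of 0.02. The changes ran from -0.59 for Tek to 0.70 for Kdr and 1.0 for Flt1. The part of these cell types in the collagen values was not tested.

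Enzymes and receptors that act on collagen were taken from lists chosen with earlier results known. Beside the counts below, 1.90% of all genes were higher and 1.23% lower. Of 18 genes for folding and modification of the chains 2 rose and 0 fell: P4ha1, a catalytic subunit of prolyl 4-hydroxylase, rose 2.28-fold (limma adjusted p = 0.007) and P3h2, a prolyl 3-hydroxylase active on type IV collagen, 1.91-fold (0.0439). The collagen chaperone gene Serpinh1 read 6.02, 6.12 and 6.33 in the control clones and 6.08, 6.11 and 6.30 in the shECAD clones, a log2 change of 0.01 ± 0.16 (SE). Of 11 genes for processing and cross-linking 4 rose and 0 fell, which were Lox, Loxl3 (2.65-fold), Bmp1, the procollagen C-proteinase (2.31-fold), and Loxl1 (2.23-fold). Of 9 collagen receptor genes 2 rose and 0 fell, the integrin gene Itgb1 (1.92-fold) and the uptake receptor gene Mrc2 (2.03-fold), while Ddr2 had a change of 1.09 ± 0.29 (SE) and an adjusted p of 0.0745 by limma. Among 14 laminins and other basement membrane partners of type IV collagen, Lama4 and Lama2 rose 2.54-fold and 1.68-fold and Lama3 fell by 1.01 on the log2 scale, and Lamb1 and Lamc1 did not pass, at 0.53 and -0.28. P3h2 and Lama2 lay below the median gene on every array. The medians of these 4 lists were 0.26, 0.72, 0.68 and 0.33, against 0.34 for the collagen chains.

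Only Col12a1 and Col8a1 among the 9 chains passed with each of the 6 clones left out in turn, with limma adjusted p up to 0.0361 and 0.0473. Col1a1 was lost without shECAD clone 8 (limma adjusted p = 0.0661), and Col4a2 without control clone 4 or shECAD clone 8 (0.0745 and 0.0665). Col6a3 was lost without control clone 3 or 4 or shECAD clone 4 or 8, and Col1a2, Col5a1, Col5a2 and Col4a1 without any clone other than control clone 2. The number of chains that rose was 12, 4 and 3 when control clone 2, 3 or 4 was left out, and 4, 2 and 5 when shECAD clone 4, 8 or 9 was. Over all genes the share called higher was 1.90%, 0.92% and 0.49% without control clone 2, 3 or 4. Without shECAD clone 4, 8 or 9 it was 0.79%, 0.40% and 1.03%, so calls were also lost over all genes. The direction of all 9 was kept in each of these comparisons.

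**Figure D4:**
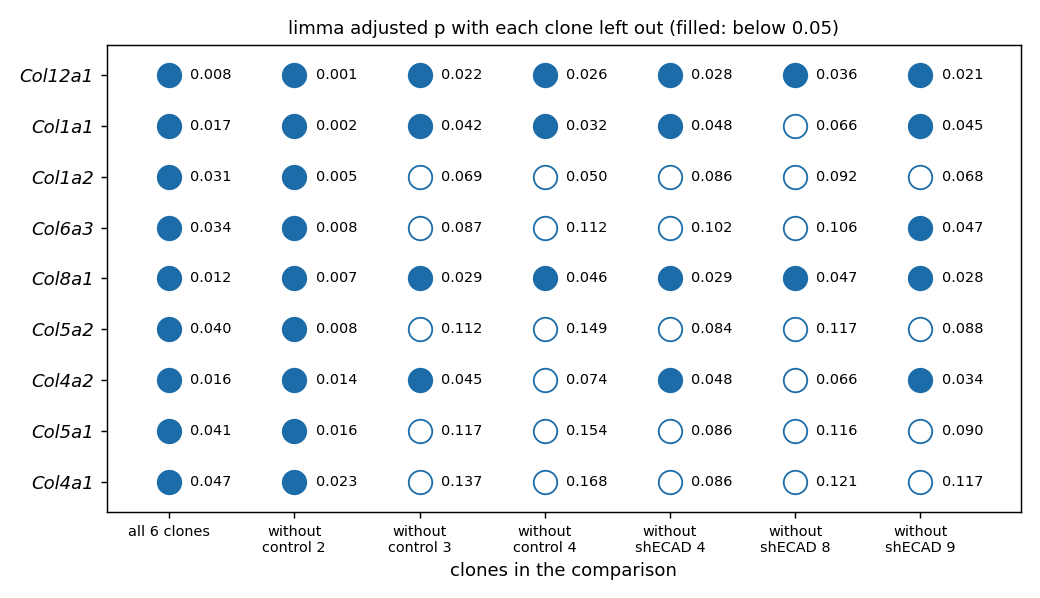
Limma adjusted p of the 9 chains with all 6 clones and with each clone left out (columns), filled where it was below 0.05. Col12a1 and Col8a1 are filled in every column, and all 9 chains are filled without control clone 2.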

How the data were processed

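Total RNA of 6 clones was labelled with biotin (100 ng each) and hybridised to Affymetrix arrays, per the labels' protocols. The authors deposited log2 expression values per probeset, and per the submitters' processing notes they used Partek and RMA. Software versions and the build (not given in the sources used here) stay unknown, and the number of arrays limits the precision.

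Of 28853 probesets, 21789 have 1 gene symbol in the platform annotation, 1621 have several and 5443 have none here. Those with 1 were kept (21698 matched RefSeq by Entrez identifier), and the probeset with the highest mean stood for each of 19938 genes. Groups were compared with limma 3.58.1 (R 4.3.3, lmFit and eBayes, no covariate), with Benjamini-Hochberg adjustment over all genes. Standard errors and 95% intervals of single genes come from this fit. Pairs of chains were compared by two-sided exact permutation over the 20 labellings. The rule named every chain that passed, each class's largest and smallest changes among the rest, the partner chains within a type, and from each list the 3 largest changes that passed or else the 2 largest. Other genes were named after their values were seen. The members and lists were chosen with earlier results of these data known.

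On simulated data for shECAD against control over 19938 genes, 2%, 44%, 90% and 100% of changes of 0.5, 1, 2 and 3 (log2) were recovered. The simulation changed 50 genes at each size and drew independent normal noise, with no shift shared within a clone. The share recovered depends on how many genes change, and 3.12% of genes passed in the data. These rates may therefore not hold for the comparison itself. Figures were drawn with matplotlib 3.10.9. Alternatives are given in the closing section.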

Additional observations from a re-analysis of the deposited data

How the results depend on the processing

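No paired analysis was possible because the labels pair no control clone with a shECAD clone. The count of 9 chains that rose was 8 after median centring, 9 after quantile normalization, with the mean of a gene's probesets and with a trended, robust prior (Col1a2 lost, Col6a1 gained), and 10 among brighter genes or with array quality weights. It was 3 when every probeset was adjusted on its own over 28853 probesets and 0 without variance moderation, where 3 of all genes passed. With 1 clone left out it ran from 2 to 12. The share of all genes called higher was 1.90% in the main comparison, 1.52% after median centring and 1.88% after quantile normalization. It was 1.86% with the mean of probesets, 2.23% with the trended prior, 3.80% among brighter genes and 3.23% with array quality weights. With every probeset on its own it was 0.53%, and with 1 clone left out it ran from 0.40% to 1.90%. The count of chains that fell was 0 throughout. The change of Cdh1, with a limma adjusted p of 0.00683, had an adjusted p of 0.194 without variance moderation at the same value of -2.13, and ran from -2.45 to -1.92 with 1 clone left out. Among brighter genes alone 27 of 27 chains tested had a change above 0. The type IV median was then 0.91, above the fibrillar 0.82, which turned their order. It rested on Col4a1 and Col4a2 alone, both of which passed the test, since the dimmer type IV chains dropped out. With 1 clone left out, class medians ran from 0.54 to 0.83 (fibrillar), 0.20 to 0.50 (type IV), 0.12 to 0.47 (FACIT) and 0.16 to 0.44 (other), and the chains above 0 from 40 to 44. Signs turned in small changes: -0.021 for Col13a1 and -0.047 for Col6a4 after median centring, -0.0025 for Col4a6 and -0.042 for Col6a4 after quantile normalization, and -0.038 for Col4a6 with array weights. With 1 clone left out the lowest and highest values were -0.11 and 0.21 for Col4a6, -0.025 and 0.24 for Col20a1, -0.033 and 0.32 for Col6a5, -0.036 and 0.16 for Col13a1, and -0.088 and 0.11 for Col6a4. The cause was not tested.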
